A study of Mus musculus with 18 samples.

Results

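The genes described here encode the proteins of the small (40S) subunit of the cytosolic ribosome. They were chosen by symbol, as mouse protein-coding genes named Rps with a number (with or without a, a1 or x), Rpsa, and Fau, which carry at least 3 CPM (counts scaled to the size of the library) in 3 or more libraries. Of 32 such symbols, 31 were measured at that level, among 12705 genes tested. The gene left out was Rps6, a body protein known as the target of S6 kinase, which had between 0 and 12 uniquely aligned counts in a library. Just inside the limit was Rps27, with 2 to 113 counts in a library. It reached the level in 9 libraries, all of them monosome or WT low polysome libraries, so its presence among the 31 depends on the fractions where it is most abundant.

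The 40S subunit holds the mRNA, scans it for the start codon and decodes it, and its proteins line the head, the platform and the body around the 18S rRNA. The mRNAs of nearly all ribosomal proteins begin with a terminal oligopyrimidine (TOP) tract directly at the cap, which places them under joint control by mTOR signalling and LARP1. In many cells a large part of these mRNAs rests outside polysomes and can move between the resting and the translating pool. Their open reading frames are short, so that fewer ribosomes fit on each of them than on an average mRNA.

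Polysome profiling separates mRNAs on a sucrose gradient by the number of ribosomes bound. The cells were V6.5 embryonic stem cells (ESCs) of the mouse, in medium with serum, LIF and 2i. They were either wild type (WT) or carried a CRISPR-Cas9 knockout of Ddx6 (Ddx6 KO), an RNA helicase of translational repression and mRNA decay. All cells of both genotypes were treated with cycloheximide, at 100 µg/ml for 2 min, before lysis. From each of 3 WT and 3 KO gradients, 18 libraries in all, sequences were read from the monosome, from a low polysome of 2 to 4 ribosomes and from a high polysome of 4 or more. The KO cells were 2 clones, with clone 1 in gradient 1 and clone 2 in gradients 2 and 3, so that clone and gradient cannot be told apart for clone 1. Nothing in the labels says that gradients of 1 genotype or clone came from separate cultures, and p-values therefore measure the spread between gradients, which may be technical. In bulk fractions, fewer cells with a transcript and less of it per cell cannot be told apart.

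Each library held between 2543617 and 11474550 gene counts, made from 3′ end reads, so that counts do not grow with the length of the transcript. All 10 ESC markers examined were expressed, at 2443 to 6008 CPM in sum. Markers of endoderm, mesoderm and fibroblasts summed to at most 9.03, 7.76 and 15.8 CPM. The 3 trophectoderm markers summed to 0.306 to 1.97 CPM in WT and 7.03 to 17.8 CPM in KO libraries, mostly from Krt7, with Elf5 at a median of 0. Their part in the differences between genotypes below was not tested. Ddx6 itself was at 143 to 212 CPM in WT and 9.68 to 82.7 CPM in KO libraries, highest in clone 1.

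Before the comparisons, 3 libraries need to be named. The low polysome of WT gradient 3, the low polysome of KO gradient 2 and the high polysome of KO gradient 3 departed from their group in a shared way. Over 12705 genes, the deviations of these libraries from the other libraries of their groups were correlated with r between 0.44 and 0.56, against a median of -0.011 and a highest value of 0.48 over the 132 other pairs. Among the small subunit genes it was Rps16 that departed most, by -1.94, -2.96 and -2.46 on the log2 scale. Rps4x departed by -0.97, -1.65 and -2.01, and Fau by -1.07, -1.46 and -1.52. Only Rps16 and Fau were lower by more than 1 in each of the 3, which is 6.45% of the 31 genes and 0.693% of all genes. In each comparison, the number of small subunit genes called is given with and without these libraries.

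**Figure D1:**
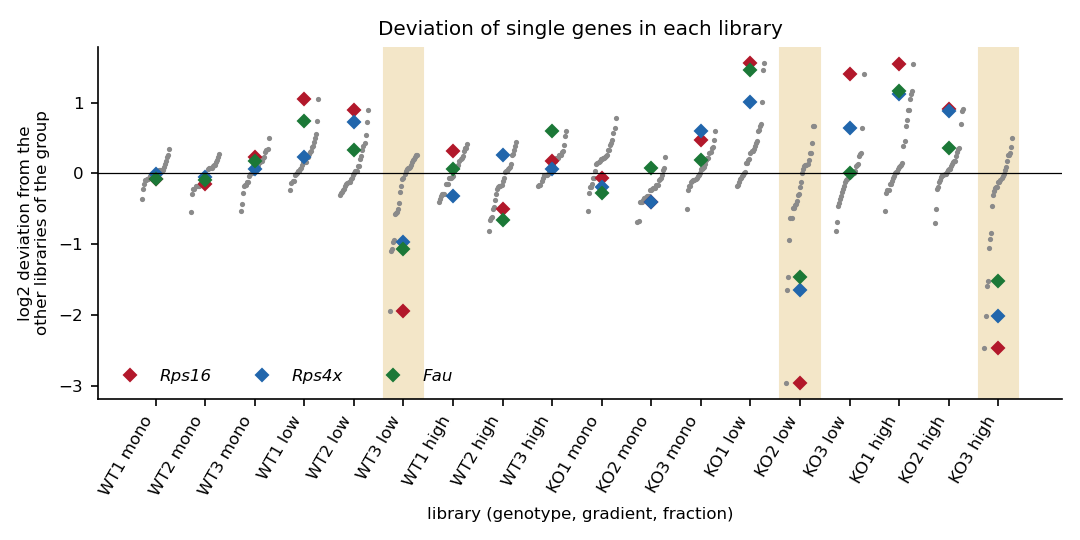
Log2 deviation (y axis) of each of 27 genes from the mean of the other libraries of its group, in each of the 18 libraries (x axis), with the libraries that stand apart shaded and Rps16, Rps4x and Fau as coloured diamonds. Rps16 lies at -1.94, -2.96 and -2.46 in the shaded libraries, while most of the genes stay within 1 of 0 in every library.

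The starts of these genes were read for TOP-like letters, since a TOP start is known for mRNAs of this group. Windows of 50 bases on either side of the annotated start were taken from RefSeq (GRCm38.p6) and were at hand for 23 of the 31 genes. On the transcribed strand, CTTCC was found in 14 of the 23 genes (60.9%), against 25.8% of the tested genes with such a window. CTTTC, which can overlap CTTCC by 1 letter, was found in 9 (39.1%), against 11.9%, and the longer CTTTCC, which holds CTTTC, in 3 (13.0% against 5.15%). On the opposite strand CTTCC was found in 5 (21.7% against 29.7%) and CTTTC in 3 (13.0% against 11.3%). In 3 genes, CTTCC began within 1 base of the annotated start, and these are shown first, in windows of 30 bases from 5′ to 3′, with the searched letters in capitals. They are Rps10 at chr17:27635227-27635256 (minus strand), Fau at chr19:6057935-6057964 and Rps24 at chr14:24490665-24490694 (both plus strand). The other 3 were picked among genes whose translation level was higher in KO and that held the letters downstream of the start. They are Rps15 at chr10:80292444-80292473, Rps2 at chr17:24720080-24720109 and Rpsa at chr9:120127776-120127805, all on the plus strand. There the letters began 26, 30 and 23 bases past the RefSeq start, so not directly at that start. Gencode starts can differ, and that of Rps15, at 80292453, lies inside its window. In Rps19 and Rps18, also with a higher translation level in KO, they began upstream, at -41 and -43. Whether the letters go with the KO effect was not tested. Each of the 6 windows overlaps the Gencode gene of that name.
Rps10: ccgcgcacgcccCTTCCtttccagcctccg
Fau: gcgcccccacttCTTCCtctttcttgactc
Rps24: cgcgctggggtcCTTCCttgcgcgttgata
Rps15: gcgcagcccgtaCTTCCttttccgagtaac
Rps2: tataaattgtccCTTCCgcggcgcctccct
Rpsa: cggccgcccgtcCTTTCgcgctacccgggg

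Counts of several members are uncertain, because reads that align equally well to a near-identical copy were discarded. Annotated pseudogenes of Rps13 held 88.5% of the counts of Rps13 and its pseudogenes together. This share was 56.9% for Rpsa, 32.1% for Rps12 and 10.6% for Rps27. For Rps6, the gene left out, it was 88.5%, with 71 counts on the gene and 549 on its pseudogenes. Its low count therefore does not show that the mRNA was absent. The share was under 1% for 20 of the 31 genes. Reads shared by both copies are in neither count, so a low share does not show that few reads were lost. Of all counts on the 31 genes, 18.6% fell on Rps3, 45.0% on the top 3 genes and 84.3% on the top 10, so that a sum over the genes describes mainly those.

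In WT cells, mRNAs of the small subunit made up a larger share of the counts in the monosome than in polysomes. Counts of separately sequenced libraries do not give the amount of RNA in a fraction. Together the 31 genes took 5.34% ± 0.277 (SD, n = 3 gradients) of the monosome counts, 2.54% ± 0.0340 of the low polysome counts and 1.60% ± 0.0235 of the high polysome counts. In KO the shares were 2.5% ± 0.257, 1.65% ± 0.116 and 1.11% ± 0.0193. The ranges of the genotypes did not overlap in any fraction.

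**Figure D2:**
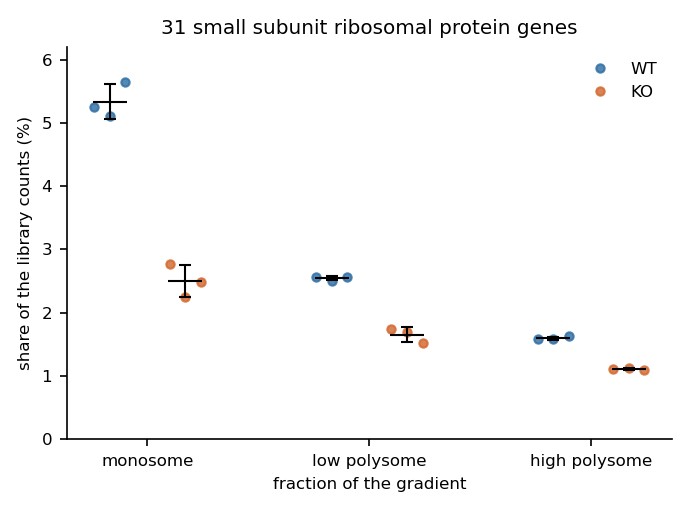
Share of library counts (%) taken by the 31 small subunit genes (y axis) in each fraction (x axis), with 1 point per library and the mean ± SD over 3 gradients in black, WT in blue and KO in orange. The WT monosome stands highest at 5.34%, and the KO high polysome lowest at 1.11%.

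The translation level of a gene, taken as its abundance in the high polysome over that in the monosome, was below that of the typical gene for 30 of the 31 in WT. They had a limma adjusted p under 0.05 and a negative log2 ratio. The remaining gene, Rps27a, was higher. Over all genes tested, 32.2% were lower and 28.9% higher. The median log2 ratio of the 31 genes was -1.64, against -0.018 for all genes. By gradient, the median log2 ratio over the 31 genes was -1.66, -1.55 and -1.80 in WT. Without the libraries that stand apart, again 30 were lower and 1 was higher, against 31.7% and 33.1% of all genes.

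Rps3, a head protein at the entry of the mRNA channel with a second role in DNA repair, held the most counts. The gene lies at chr7:99477896-99483738 (GRCm38, Gencode M21). It was at 11996, 11242 and 13504 CPM in the WT monosomes, 3061, 3266 and 3308 CPM in the low polysomes, and 4059, 4082 and 3645 CPM in the high polysomes. The monosomes were thus well above both polysome fractions in all gradients, with no overlap. Its log2 ratio of high polysome to monosome was -1.64 ± 0.11 (SE, limma adjusted p = 5.00e-11).

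Among the head proteins, which contact the tRNAs and the mRNA exit, 13 of 14 were lower in the high polysome of WT. The lowest was Rps12, at 34.6 to 42.6 CPM in monosomes and 1.90 to 3.58 CPM in high polysomes, with a log2 ratio of -3.83 ± 0.26. Rps28 was at -2.58 ± 0.25 and Rps20 at -2.54 ± 0.20. Rps19, needed for 18S rRNA maturation and mutated in Diamond-Blackfan anaemia, had a log2 ratio of -2.13 ± 0.11. The smallest significant fall in the head was that of Rps25 (-0.64 ± 0.14), a protein used by viral internal ribosome entry sites.

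Rps27a (chr11:29545846-29548109) encodes ubiquitin fused to a 40S protein. It was at 21.9, 19.3 and 15.1 CPM in the WT monosomes, 14.1, 15.6 and 17.9 CPM in the low polysomes and 44.9, 46.0 and 42.2 CPM in the high polysomes. The high polysome libraries lay above the other fractions in all gradients. Its log2 ratio of high polysome to monosome was 1.28 ± 0.26 (limma adjusted p = 2.25e-04). Fau, a fusion with the ubiquitin-like FUBI, had a log2 ratio of -1.05 ± 0.38 (limma adjusted p = 0.0212).

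All 5 platform genes were lower in the high polysome of WT. The platform carries the mRNA exit and the 3′ end of the 18S rRNA. Rps21 had a log2 ratio of -3.07 ± 0.14, Rps26 one of -2.65 ± 0.13, Rpsa one of -2.46 ± 0.15 and Rps14 one of -2.02 ± 0.14. The highest in this group was Rps3a1, at -1.26 ± 0.23.

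Of the 12 body genes measured, all were lower in the high polysome of WT. Rps27, a zinc finger protein, was at 12.3 to 20.3 CPM in monosomes and 0.50 to 0.753 CPM in high polysomes, with a log2 ratio of -4.66 ± 0.45 from very few counts. Rps13 was at -3.29 ± 0.24. Among the least lowered were Rps9 (-0.60 ± 0.12), which guards decoding fidelity, and Rps4x (-0.95 ± 0.37), the X-linked copy of Rps4. Without WT gradient 1, and likewise without WT gradient 2, Rps4x and Fau were no longer called and 27 of the 31 genes were lower.

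Paralogs and partners outside the rule showed both patterns. Rack1, a scaffold protein on the 40S head, had a WT log2 ratio of high polysome to monosome of -1.85 ± 0.14. Rps27l, a p53-inducible paralog of Rps27, was at -3.15 ± 0.18. Rps4l, an autosomal Rps4 copy, was higher in the high polysome, at 2.14 ± 0.17 (limma adjusted p = 1.04e-09), with 1318 to 1986 CPM in the high polysomes against 297 to 478 CPM in the monosomes.

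In the low polysome of WT, 26 of the 31 genes were lower than in the monosome and none was higher by limma (1 at an unadjusted p under 0.05, and none by edgeR or DESeq2), while 22.8% of all genes were lower and 20.4% higher. The median log2 ratio was -1.42. Rps4x was at -2.98 ± 0.47 and Rps13 at -2.95 ± 0.24. Without the libraries that stand apart, again 26 were lower and none was higher, with Rps4x at -2.64 ± 0.22 and Rps13 at -2.96 ± 0.18. No call was made for Rps25, Rps28, Rps27a, Rps14 and Rps29, whose log2 ratios lay between -0.49 and 0.30.

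Between the polysome fractions of WT, the genes parted. In the high polysome 15 were lower than in the low polysome and 5 were higher, against 32.6% and 29.5% of all genes. The 5 that were higher were Rps4x (2.04 ± 0.47), Rps27a (1.49 ± 0.23), Rps7 (0.90 ± 0.27), Rps9 (0.47 ± 0.12) and Rps3 (0.29 ± 0.11). Without WT gradient 2 this number fell to 3, and without the libraries that stand apart 5 were higher and 13 lower. Of all genes, 31.2% were higher and 29.9% lower without these libraries. Rps19 (-0.25 ± 0.12) and Rpsa (-0.32 ± 0.17) were then no longer called.

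The short reading frames were at the other end. Rps28 (chr17:33819027-33824562), with a coding length of 207 nt, was at 738, 566 and 620 CPM in the WT low polysomes and at 115, 64.5 and 113 CPM in the high polysomes. The fractions did not overlap, and the log2 ratio was -2.76 ± 0.25 (limma adjusted p = 1.01e-08). The other genes up to 300 nt, Rps29 (168 nt), Rps21 (249 nt) and Rps27 (252 nt), had log2 ratios of high to low polysome of -2.02 ± 0.28, -2.04 ± 0.14 and -2.48 ± 0.48. The median over these 4 genes was -2.26, beside -1.77 for 237 other protein-coding genes of that length.

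Between 300 and 500 nt, the median log2 ratio of high to low polysome was -0.34 for 18 small subunit genes and -0.96 for 773 others. From 500 to 1000 nt it was 0.38 for 9 small subunit genes and 0.048 for 2757 others. As a description, the Spearman's rho of this log2 ratio with coding length was 0.69 over the 31 genes, which share their libraries, and 0.093 over 11773 protein-coding genes of all lengths. For the log2 ratio of high polysome to monosome in WT, rho was 0.45 and 0.038.

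**Figure D3:**
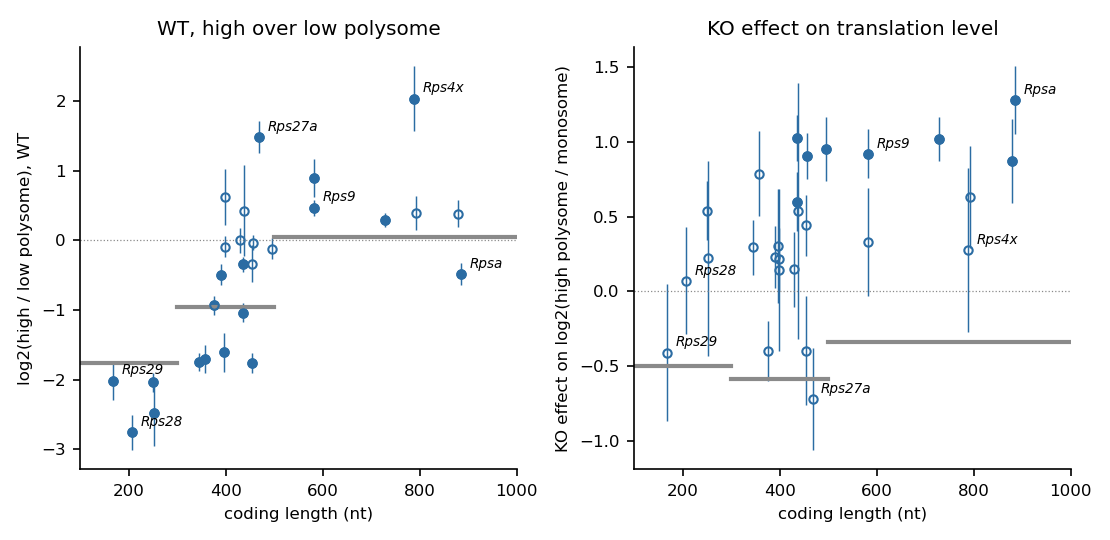
Coding length (x axis, nt) of 27 of the genes against the log2 ratio of high to low polysome in WT (left) and the KO effect on the log2 ratio of high polysome to monosome (right), as points with SE, filled where the limma adjusted p was under 0.05. Grey lines are the medians of the other protein-coding genes in 3 length classes, and they lie at -1.77, -0.96 and 0.048 on the left.

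None of the libraries used here held total RNA, so the level of an mRNA in the whole cell was not measured. Relative to the typical gene of the same fraction, small subunit mRNAs were lower in Ddx6 KO than in WT, most of all in the monosome. There, 27 of the 31 genes were lower and none higher by limma (none at an unadjusted p under 0.05, and none by edgeR or DESeq2), against 20.1% of all genes lower and 18.6% higher. The median log2 change was -0.95, against -0.033 for all genes. In the low polysome 20 were lower (24.3% of all genes lower, 23.4% higher), with a median of -0.62, and in the high polysome 17 were lower (21.1% lower, 25.3% higher), with a median of -0.54. In these fractions too, none of the 31 was higher by limma, edgeR or DESeq2 or at an unadjusted p under 0.05.

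Rps3 was at 4238, 3629 and 4159 CPM in the KO monosomes, where WT had 11996, 11242 and 13504 CPM. It was at 2099, 2332 and 2399 CPM in the KO low polysomes and 2528, 2729 and 2553 CPM in the KO high polysomes. KO libraries were below all WT libraries of the same fraction in each case. The log2 changes were -1.61 ± 0.11 in the monosome (limma adjusted p = 7.99e-10), -0.50 ± 0.11 in low polysomes and -0.59 ± 0.11 in high polysomes.

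Rpsa (chr9:120127689-120132369), the laminin receptor precursor on the platform, fell most in the monosome. It was at 175, 201 and 166 CPM in WT and 58.7, 52.9 and 49.0 CPM in KO monosomes, a log2 change of -1.75 ± 0.15 (limma adjusted p = 3.39e-08) without overlap. Rps19 fell by 1.61 (± 0.11) on the log2 scale. Large falls were also measured for Rps10 (-1.27 ± 0.15), Rps20 (-1.25 ± 0.20), Rps2 (-1.24 ± 0.20) and Rps3a1 (-1.24 ± 0.24).

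In all, 14 genes were lower in all 3 fractions of KO, 9 in 2 fractions and 4 in 1. Of all genes, 20.1%, 24.3% and 21.1% were lower in the monosome, low and high polysome. The share of all genes lower in several fractions is not given here. Among the 14 were the head genes Rps3, Rps15, Rps19, Rps25 and Rps29, the platform genes Rps14, Rps21, Rps26 and Rpsa, and the body genes Rps15a, Rps23 and Rps24. The 4 that passed in no fraction were Fau, Rps16, Rps27 and Rps27a. Their monosome log2 changes were -0.71 ± 0.37, -0.97 ± 0.57, -0.55 ± 0.23 and 0.32 ± 0.27.

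Without the libraries that stand apart, 29 genes were lower in KO monosomes, among them Fau and Rps16, with 19 lower in low polysomes and 22 in high polysomes. Of all genes, 21.9%, 20.3% and 24.3% were then lower in the monosome, low and high polysome. Of the 17 calls in the high polysome, 16 were shared, and Rps3a1 was no longer called (-0.40 ± 0.17). Rps9 was no longer called in the low polysome (-0.33 ± 0.14). In the high polysome DESeq2 called 23 genes lower. With 1 gradient left out the number in the high polysome lay between 13 and 18, with the lowest without WT gradient 3.

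**Figure D4:**
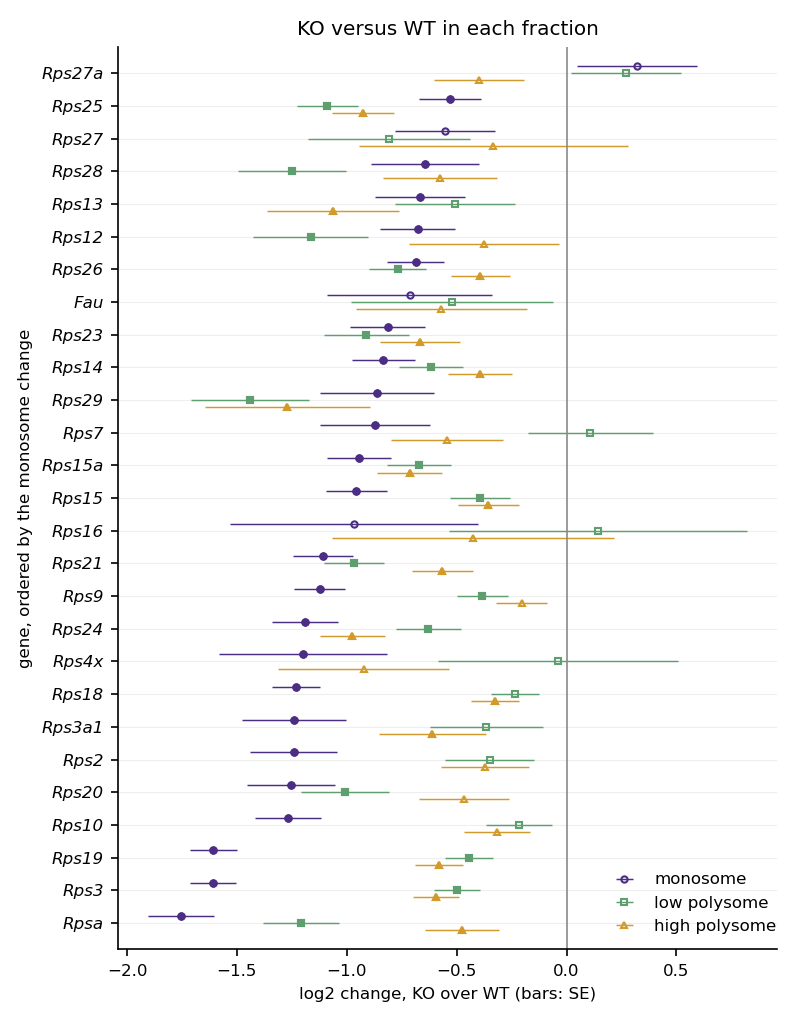
Log2 change of KO over WT (x axis, bars are SE) for 27 of the genes (y axis, ordered by the monosome change) by fraction, with filled symbols where the limma adjusted p was under 0.05. In 23 of them the monosome value lies to the left of the high polysome value, with the widest gap in Rpsa (-1.75 against -0.47).

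The fall was unequal between fractions, so the translation level shifted. The difference between genotypes in log2(high polysome / monosome), which is the KO effect on translation level, was positive for 25 of the 31 genes. It was significant for 9, all upward, against 10.7% of all genes raised and 7.09% lowered. None was lowered by limma, edgeR or DESeq2, and 13 were raised and 1 lowered at an unadjusted p under 0.05. The median KO effect was 0.33 on the log2 scale, against 0.022 for all genes.

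By gradient, the median log2 ratio of the 31 genes was -1.05, -0.86 and -1.32 in KO, above the -1.66, -1.55 and -1.80 of WT in every case. The mean was -1.08 ± 0.23 (SD) in KO and -1.67 ± 0.12 in WT. For 12 genes all 3 KO gradients lay above all 3 WT gradients, and for 1 gene, Rps29, below. Over all genes, 21.2% lay wholly above and 17.8% wholly below.

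**Figure D5:**
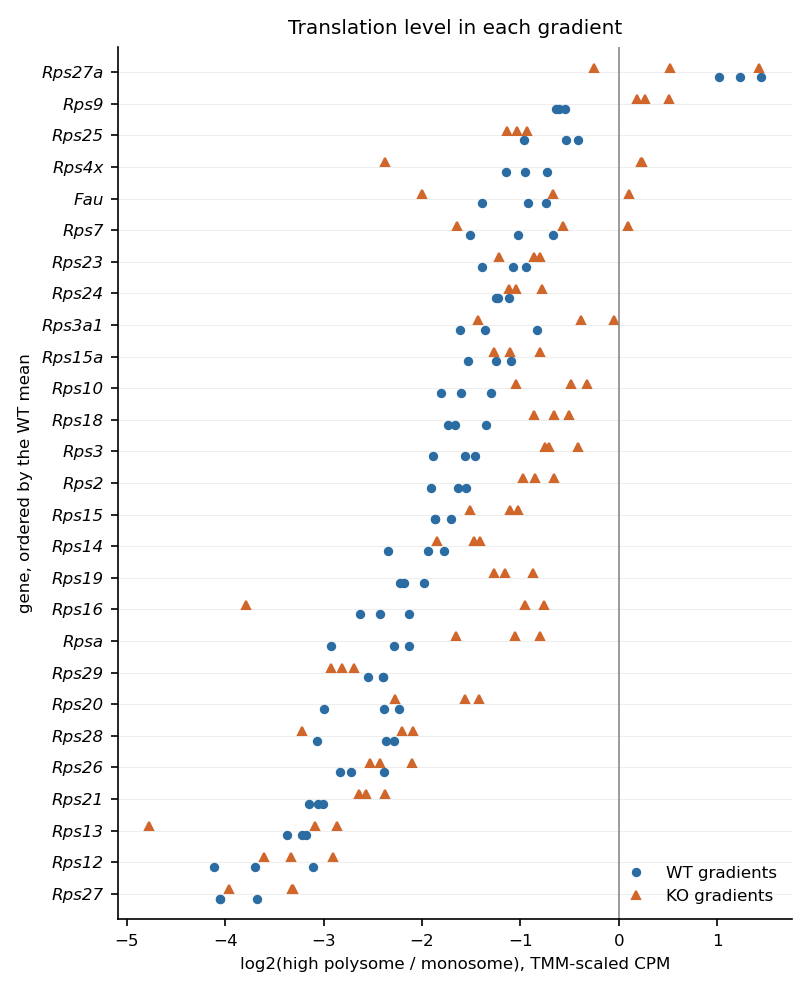
Log2 ratio of high polysome to monosome (x axis, from TMM-scaled CPM with a pseudocount of 0.5) of 27 of the genes (y axis, ordered by the WT mean), with 1 blue circle per WT gradient and 1 orange triangle per KO gradient. All but Rps27a lie below 0 in WT, and in 10 of those drawn the KO gradients lie to the right of all WT gradients.

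The 9 raised genes were 6 of the 14 head genes, 1 of the 5 platform genes and 2 of the 12 body genes. No difference between these places was tested. Rps19 (chr7:24884371-24889806) was at 3077, 2822 and 3211 CPM in WT monosomes and 680, 715 and 689 CPM in WT high polysomes. In KO it was at 1099, 954 and 939 CPM in monosomes and 455, 520 and 422 CPM in high polysomes. The monosome level thus fell by more than the high polysome level, and its log2 ratio moved from -2.18, -1.98 and -2.22 in WT to -1.27, -0.87 and -1.15 in KO. The KO effect was 1.03 ± 0.15 (limma adjusted p = 2.94e-04).

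Rps3 moved from -1.56, -1.46 and -1.89 to -0.75, -0.41 and -0.70, with a KO effect of 1.02 ± 0.15 (limma adjusted p = 2.46e-04). The genotypes did not overlap for Rps19 or Rps3. Rps10, which is ubiquitinated on collided ribosomes, had a KO effect of 0.95 ± 0.21, Rps18, a neighbour of the tRNAs in the head, one of 0.91 ± 0.15, and Rps15, whose tail reaches the decoding centre, one of 0.60 ± 0.20.

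The largest KO effect was that of the platform gene Rpsa, whose log2 ratios were -2.28, -2.92 and -2.13 in WT and -1.66, -1.06 and -0.80 in KO (1.28 ± 0.23, limma adjusted p = 0.00115). In the body, Rps9 rose from -0.60, -0.54 and -0.64 to 0.27, 0.52 and 0.19 (0.92 ± 0.16, limma adjusted p = 0.00119). It was the only 1 of the 9 with a higher scaled level in the KO high polysome than in the KO monosome, at a log2 ratio of 0.32 ± 0.12. The other body gene was Rps2, at the mRNA entry, with a KO effect of 0.87 ± 0.28.

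All 9 raised genes were lower in the KO monosome, and 5 of them (Rps3, Rps15, Rps18, Rps19 and Rpsa) were also lower in the KO high polysome. The KO effect is the high polysome change less the monosome change, so a lower monosome is partly built into this choice of genes. None of the 9 was higher in a polysome fraction of KO. In the high polysome the log2 changes of the 9 lay between -0.59 (Rps3) and -0.20 (Rps9). Of the 9, the calls of Rps2 and Rps15 were each lost in 5 of the 6 fits with a gradient left out. That of Rps10 was lost without KO gradient 3 alone. Over all 15 alternatives, these fits included, Rps15 was lost in 10 and Rps2 in 7. Both were lost with library size alone and with no filter. The other 6 genes were called in every fit with a gradient left out and by every alternative. Without the libraries that stand apart 11 genes were raised, 8 of them shared, against 8.57% of all genes raised and 11.4% lowered. Rps15 was then at 0.41 (limma adjusted p = 0.127), and Rps16 (1.31 ± 0.24), Rps4x (0.89 ± 0.24) and Rps3a1 (0.83 ± 0.23) were raised.

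The raised genes had coding lengths of 435 to 885 nt (median 582) and mean levels of 59.4 to 4713 CPM (median 847). The 22 others had coding lengths of 168 to 792 nt (median 402) and mean levels of 5.69 to 4099 CPM (median 58.8), so that the tests had less precision for many of them. The KO effect had a Spearman's rho with coding length of 0.52 over the 31 genes and 0.54 over 11773 protein-coding genes, as a description over genes that share their libraries. From 500 to 1000 nt, the median KO effect was 0.87 for 9 small subunit genes and -0.34 for 2757 others. With the trend on coding length removed, 16 of the 31 genes were raised. The share of all genes raised in that fit is not given here.

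Several genes had a KO effect below 0, none of them called. Rps29, a small zinc-binding protein of the head, had log2 ratios of -2.40, -2.39 and -2.55 in WT and -2.81, -2.69 and -2.92 in KO, with a KO effect of -0.41 ± 0.46 (limma adjusted p = 0.563). Rps25 had a KO effect of -0.40 ± 0.20 (limma adjusted p = 0.174), and Rps27a one of -0.72 ± 0.34 (limma adjusted p = 0.146). Without the libraries that stand apart these values were -0.51 ± 0.35 for Rps29, -0.46 ± 0.20 for Rps25 and -0.50 ± 0.26 for Rps27a, none of them called. Rps13 had log2 ratios of -3.37, -3.18 and -3.21 in WT and -3.09, -2.86 and -4.78 in KO. Only KO gradient 3, whose high polysome stands apart, lay below WT, and the KO effect of -0.40 ± 0.36 became 0.098 ± 0.24 without the libraries that stand apart.

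In KO the high polysome was still the poorer fraction for most of the genes. Relative to the KO monosome, 28 of the 31 were lower and 2 were higher (Rps27a at 0.56 ± 0.22 and Rps9), against 33.6% and 35.0% of all genes, with a median log2 ratio of -1.03. The 2 higher calls became 1 without KO gradient 1 and 0 without KO gradient 2. With gradients as blocks, 27 were lower, since Fau was no longer called. Without the libraries that stand apart 25 were lower and 2 higher, with Rps3a1 (-0.37 ± 0.17), Rps7 (-0.39 ± 0.20) and Fau (-0.38 ± 0.24) no longer called. Of all genes, 33.5% were then lower and 34.1% higher. Rps4x, not called in either fit, moved from -0.67 to 0.011.

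Taken on the low polysome over the monosome, the KO effect was significant for 6 genes, all upward, where 2.31% of all genes were raised and 2.39% lowered. Among them were Rps19 (1.16 ± 0.15), Rps3 (1.11 ± 0.15), Rps10 (1.05 ± 0.21), Rps18 (1.0 ± 0.15) and Rps9 (0.74 ± 0.16). All 6 were also raised with the high polysome, but both ratios use the same monosome libraries, so these calls are not independent. None was lowered by limma, edgeR or DESeq2 (1 at an unadjusted p under 0.05). With 1 gradient left out the number raised lay between 4 and 6. The calls of Rps9 and Rps10 were lost without WT gradient 1, WT gradient 2, KO gradient 2 or KO gradient 3, and the other 4 were called in every such fit. DESeq2 raised 8, and without the libraries that stand apart 11 were raised, against 2.87% of all genes. The KO effect on the ratio of high to low polysome was called for none of the 31 by limma, edgeR or DESeq2 (1 in each direction at an unadjusted p under 0.05), against 3.39% of all genes raised and 1.03% lowered. None was called without the libraries that stand apart, against 1.03% of all genes raised and 1.05% lowered.

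Other parts of the translation machinery are given for comparison, as counts and medians. Of 46 large subunit genes, 13 were raised in translation level by KO and none lowered, with a median KO effect of 0.57, and 42 were lower in the KO monosome. Of 12 elongation factors and other TOP mRNAs, 11 were raised, with a median of 1.41, and 11 were lower in the KO monosome. None of these 12 was called lower in the KO high polysome, where 17 of the 31 small subunit genes were. Large subunit genes took 1.10%, 1.06% and 1.16% of the counts in the WT high polysomes. In the KO high polysomes they took 0.81%, 0.82% and 0.82%, so their share was lower there too. The 29 genes of the mitochondrial small subunit, whose mRNAs are not TOP mRNAs, had 8 lowered and none raised, with a median of -0.47, and 2 were lower in the KO monosome. Among 29 genes of 40S assembly and TOP mRNA control, such as Tsr1, Nob1, Bysl and Larp1, 7 were raised and 2 lowered, with a median of 0.14. Rack1 had a KO effect of 1.06 ± 0.19 (limma adjusted p = 0.00129) and was lower in the KO monosome (-1.25 ± 0.13). Rps27l had a KO effect of -0.18 ± 0.26 and was lower in all 3 fractions of KO. No difference between these lists was tested.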

How the data were processed

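Per the labels, lysates were spun through sucrose gradients and 3′ end libraries were made with the QuantSeq 3′ FWD kit. The submitters' processing notes name cutadapt 1.14, STAR 2.5.3a and featureCounts 1.5.3. The authors deposited raw counts per gene (Gencode M14, unique alignments, counted by strand), with 92 spike-in sequences that were left out. No molecular identifiers are mentioned, so PCR copies are among the counts. Symbols, coordinates and coding lengths came from Gencode M21 on GRCm38, which matched 51274 of 51467 gene identifiers.

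Genes with at least 3 CPM in at least 3 libraries were kept (12705, with 99.6% of counts). TMM scaling came from edgeR 4.0.16, and the 6 groups were modelled by limma 3.58.1 with voom weights in R 4.3.3, following the study's use of limma and of an interaction term. Tests were two-sided, p-values were adjusted over all tested genes by the Benjamini-Hochberg method, and 0.05 was the threshold of a call. Changes are relative to the typical gene, since TMM sets it to no change. Fractions of 1 gradient are 1 lysate, so gradients pair the fractions, and a fit with gradients as blocks was an alternative. Other alternatives were DESeq2 1.42.0, edgeR's quasi-likelihood test, other scalings, no filter, only the groups compared, each gradient left out, and removal of the trend on coding length. Scripts were tested on simulated data. Ratios by gradient used a pseudocount of 0.5 CPM. The rule names all members, and some of them are counted but not reported singly here, in text or figures. The members, the lists of compared genes and the places on the subunit were chosen with earlier results of these data known.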

Additional observations from a re-analysis of the deposited data

Results flagged for a closer look

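The KO clones moved in opposite directions for 2 of the 31 genes in log2(high polysome / monosome). There the clone 1 gradient and both clone 2 gradients lay on opposite sides of the WT mean. The share of all genes with such a split is not given here. For Rps27a, the ubiquitin fusion, the clone 1 gradient was 0.19 above the WT mean, and the clone 2 gradients were at -0.71 and -1.49 relative to it. For Rps28, with 1 of the shortest reading frames, the clone 1 gradient was at -0.64, and the clone 2 gradients were 0.37 and 0.48 above the WT mean. The high polysome of KO gradient 3 (clone 2) is among the libraries that stand apart, and in it Rps27a departed by -0.92 and Rps28 by 0.50. Clone 1 had a single gradient, so the difference between clones was not tested, and it cannot be told apart from a difference between gradients.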

How the results depend on the processing

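Of 4369 values of single genes under alternatives, 4165 kept their side of the threshold, 125 were no longer called, 79 became called and 0 of the called ones changed sign. Of the 4165, 114 changed sign and were called in neither fit. The count of raised genes in the KO effect on high polysome over monosome was 9, and became 16 with the trend on coding length removed. The count lowered there was 0, and became 1 with only the groups compared (Rps25). The count raised in the low polysome became 11 without the 3 libraries that stand apart, a choice made after seeing the data. The WT count higher in the low polysome became 1 with no filter, and the KO count higher in the high polysome became 0 with library size alone and 0 with only the groups compared. With the low polysome as the denominator, the median log2 ratio by gradient was -0.27 in WT and -0.36 in KO. With 1 gradient left out, the WT count higher in the high than in the low polysome lay between 3 and 5, the KO count higher in the high polysome between 0 and 2, the count lowered by KO in high polysome over monosome between 0 and 1, and the count raised in high over low polysome between 0 and 1. The cause of these changes was not tested. With library size alone, the median KO effect of all genes moved from 0.022 to -0.10, and 7 of the 31 genes were raised.

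With gradients as a replicate block, 9 genes were raised in the KO effect on high polysome over monosome and 6 in that on low polysome over monosome, and only the call of Fau in KO changed. Whether the replicate numbers pair WT with KO gradients is not known. Deviations of same-numbered WT and KO libraries of a fraction correlated between -0.51 and 0.25. Those of fractions of the same gradient, which are paired, correlated between -0.18 and 0.48, so such values cannot decide it. With the numbers as a block, 27, 20 and 17 genes were lower in the KO monosome, low and high polysome. The limits are the few counts of Rps27, Rps12 and Fau, the discarded shared reads of Rps13 and Rpsa, and 3 gradients per genotype.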
